A study of Homo sapiens with 38 samples.

Results

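The mitochondrially encoded RNAs of HCT116 cells were taken as all genes whose annotated symbol begins with MT-, which gave 37 of the 58425 genes with a matched transcript. They comprise 13 mRNAs, 2 ribosomal RNAs (rRNAs) and 22 transfer RNAs (tRNAs). HCT116 is a human colorectal carcinoma cell line, grown here in McCoy's 5a medium. Its unedited cells (WT) were compared with lines knocked out for AGO1, for AGO2, for AGO1 and AGO2 (AGO1/2), and for AGO1, AGO2 and AGO3 (AGO1/2/3), the genes of the Argonaute proteins that carry small RNAs to their targets. RNA from a nuclear and a cytoplasmic fraction of each line was sequenced after rRNA removal, with 3 libraries per line and fraction and 30 libraries in all. No treatment was given, and the replicates are cultures at different passages of 1 line per genotype. WT cells were at passages 27 to 29 and the knockout lines at passages 6 to 14, so that genotype, clone and passage cannot be told apart.

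The mitochondrial genome is a small circle with a heavy and a light strand, each transcribed from its own promoter as one long precursor. The tRNAs lie between most of the mRNAs and rRNAs, and their excision releases the other RNAs. The mRNAs encode core subunits of respiratory complex I (the MT-ND genes), complex III (MT-CYB), complex IV (MT-CO1 to MT-CO3) and ATP synthase (MT-ATP6 and MT-ATP8). Of them, 12 are made from the heavy-strand promoter and lie on the annotated plus strand, and they are called heavy-strand mRNAs here. MT-ND6, a complex I subunit, is the 1 mRNA on the minus strand. The remaining minus-strand genes are 8 tRNAs.

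4 short stretches of the genome sequence (hg38 chrM, 16569 bases, GENCODE 44 gene positions) show how closely these genes are packed. The first pair marks where MT-ATP6 starts inside MT-ATP8 and where MT-ND4 starts inside MT-ND4L, with the shared bases that fall in the window in capitals. The second pair gives the last 30 annotated bases of MT-ND5 and of MT-ND6, which are neighbours on opposite strands and are each read 5′ to 3′ on their own strand, with every G in capitals. The MT-ATP8/MT-ATP6 window lies at chrM:8512-8541, plus strand, and the MT-ND4L/MT-ND4 window at chrM:10748-10777, plus strand. The MT-ND5 window lies at chrM:14119-14148, plus strand, and the MT-ND6 window at chrM:14149-14178, minus strand.
MT-ATP8/MT-ATP6: accctgagaaccaaaATGAACGAAAATCTG
MT-ND4L/MT-ND4: aaacctactccaATGCTAAaactaatcgtc
MT-ND5, last bases: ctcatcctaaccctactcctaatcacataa
MT-ND6, last bases: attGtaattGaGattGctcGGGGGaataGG

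MT-ATP8 (chrM:8366-8572) and MT-ATP6 (chrM:8527-9207) share 46 bases, and MT-ND4L (chrM:10470-10766) and MT-ND4 (chrM:10760-12137) share 7. Each pair is carried on 1 bicistronic mRNA, so the split of its reads between the 2 genes is an estimate. MT-ND6 (chrM:14149-14673, minus strand) ends next to the end of MT-ND5 (chrM:12337-14148, plus strand). The window of MT-ND6 holds 11 G and that of MT-ND5 none, and over whole genes G made up 35.6% of MT-ND6 and 6.3% to 16.2% of the heavy-strand mRNAs. C made up 7% of MT-ND6 and 29.5% to 36% of the others.

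Library depth ranged from 20431557 to 54097984 assigned reads in the nuclear fraction and from 39476205 to 79731793 in the cytoplasmic fraction. WT libraries were the shallowest in both fractions. They had no more than 26536692 reads in nuclei, against at least 31252459 in the knockouts, and no more than 43281746 in the cytoplasm, against at least 66451720. The nuclear RNAs MALAT1, NEAT1 and KCNQ1OT1 summed to 1260 to 3667 TPM (reads scaled by transcript length and to the same total in every library) in nuclear libraries and to 90.8 to 165 TPM in cytoplasmic ones. Lists of cytosolic and of endoplasmic reticulum mRNAs were not clearly higher in the cytoplasm of every line (values beside the nuclear results). AGO1 mRNA fell from a mean of 12.9 TPM in WT cytoplasm to 0.886 to 0.920 TPM in the 3 lines that lack it, AGO2 mRNA stayed between 26.1 and 34.3 TPM in the nuclei of the lines that lack it (WT 53.0), and AGO3 mRNA was 8.64 TPM in AGO1/2/3 cytoplasm and 8.39 TPM in WT, so RNA levels check the AGO1 label but not the AGO3 label. A list of 7 colon epithelial markers summed to 639 to 2243 TPM, mostly KRT8 and KRT18, with VIL1 at most 0.0773 and KRT20 at most 0.775. Its members moved with genotype. Mean CDH1 was 12.3 TPM in WT cytoplasm, 1.12 in AGO1/2 and 1.90 in AGO1/2/3, and EPCAM was 142, 44.1 and 52.0. KRT8 and KRT18 went the other way in AGO1/2 nuclei (498 to 1212 and 369 to 826 TPM). Lists of fibroblast and blood cell markers summed to at most 6.36 and 4.01 TPM.

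The share of reads assigned to MT- genes was compared first, since it shows how much of each library the organelle supplied. In WT cytoplasm it was 9.32%, 9.34% and 9.72% (mean 9.46% ± 0.223, SD, n = 3). The AGO1/2 cytoplasm gave 15.2%, 17.8% and 12.4% (15.1% ± 2.72), all 3 above every WT library, and the ratio of means was 1.60. The AGO1 cytoplasm gave 8.05%, 8.02% and 7.27% (7.78% ± 0.443), all below WT. AGO2 (9.46% ± 0.429) and AGO1/2/3 (9.93% ± 1.10) overlapped WT by this measure. With 3 libraries against 3, an exact permutation test cannot go below p = 0.1, so no test is given for shares. These are shares of sequenced reads, and fewer mitochondria per cell, less RNA per mitochondrion and a changed amount of other RNA cannot be told apart.

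Of the nuclear reads, MT- genes took 0.518%, 0.342% and 0.358% in WT (0.406% ± 0.0974, n = 3). The AGO1/2 nuclei gave 0.257%, 0.286% and 0.269% (0.270% ± 0.0147), below all WT libraries. Nuclear AGO1 (0.371% ± 0.0296), AGO2 (0.377% ± 0.0208) and AGO1/2/3 (0.305% ± 0.0426) overlapped WT, whose passage 27 library stood apart from the other 2. The cytoplasmic share was 23.3 times the nuclear share in WT, 21.0 times in AGO1, 25.1 times in AGO2, 32.5 times in AGO1/2/3 and 55.9 times in AGO1/2. By reads, the AGO1/2 share was thus higher than WT in the cytoplasm and lower in the nuclei. On the TPM scale AGO1/2 and WT overlapped in both fractions. The cytoplasmic share was 9.82% to 10.8% in WT and 10.8% to 15.8% in AGO1/2, and the nuclear share 0.421% to 0.790% and 0.380% to 0.457%. By TPM the cytoplasm of AGO1 (6.98% to 8.08%) and AGO2 (8.17% to 9.10%) lay below all WT libraries. That of AGO1/2/3 (7.58% to 10.2%) overlapped WT. The cytoplasmic TPM share was 18.4 times the nuclear one in WT and 32.2 times in AGO1/2.

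**Figure D1:**
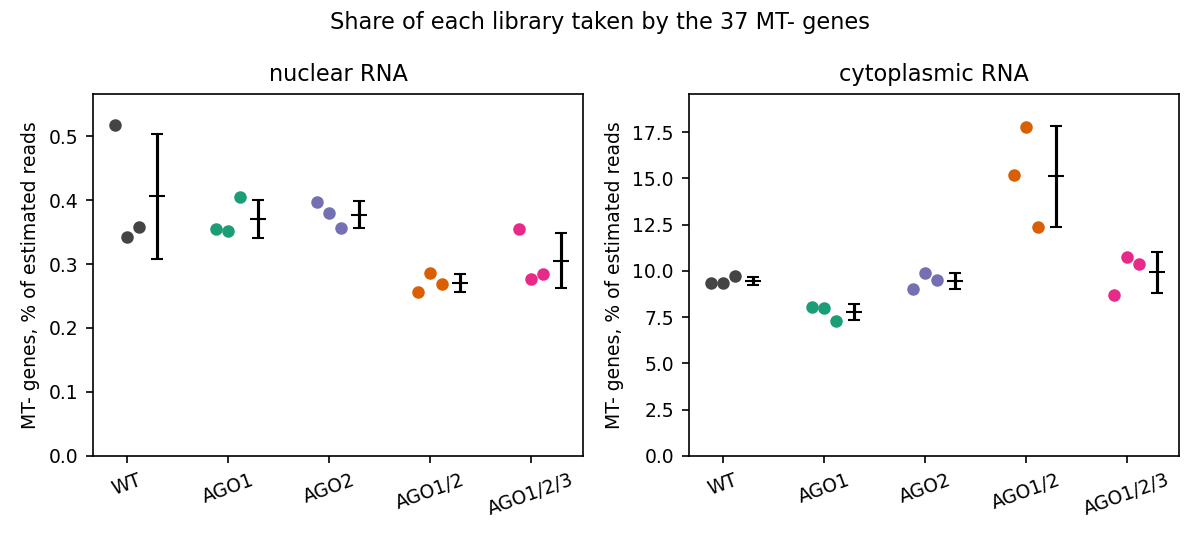
Share of assigned reads from MT- genes in each library (percent), by genotype, with the nuclear and the cytoplasmic fraction on separate linear axes; coloured points are libraries and black bars are the mean ± SD of 3. The cytoplasmic AGO1/2 libraries (12.4% to 17.8%) lie above all WT libraries (9.32% to 9.72%), while the nuclear AGO1/2 libraries (0.257% to 0.286%) lie below all WT libraries (0.342% to 0.518%).

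The levels of the 13 mRNAs within WT cells were set in order by TPM, which corrects for length. In WT cytoplasm MT-ATP8 (mean 16441 TPM) and MT-CO3 (14705 TPM), a catalytic-core subunit of complex IV, came first and their libraries overlapped. MT-CO1 (11878 TPM) and MT-ATP6 (11574 TPM) followed and did not separate from each other, nor did MT-CO2 (9875 TPM) and MT-ND4 (9568 TPM). MT-ND4L stood at 7020 TPM, apart from its neighbours in the order. MT-ND2 (4592 TPM), MT-CYB (4463 TPM), MT-ND3 (4386 TPM), MT-ND1 (3890 TPM) and MT-ND5 (3854 TPM) formed a run in which each overlapped the next. MT-ND6 was last, at 1671 TPM, below every MT-ND5 library. MT-CO3 led the cytoplasm of all 4 knockout lines.

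In WT nuclei the order was headed by MT-ND6, at a mean of 2373 TPM and 3710, 2027 and 1383 TPM in the 3 libraries. Each of those libraries lay above every library of MT-ATP8 (460 TPM), the next gene, and no other neighbours in the order were separate. MT-ND3 was lowest, at 88.0 TPM. MT-ND6 was first in the nuclei and last in the cytoplasm of all 5 lines. The nuclear heavy-strand mRNAs fell with distance along the transcript: Spearman's rho between a gene's start and its TPM over the 12 genes was -0.874 to -0.678 in the 15 nuclear libraries and -0.259 to 0.035 in the 15 cytoplasmic ones. These are descriptions across genes that share a precursor and a library. MT-ND1, the first mRNA of the heavy-strand transcript, had 2.03 to 2.83 times the TPM of MT-CYB, the last, in nuclear libraries and 0.609 to 1.03 times in cytoplasmic libraries.

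**Figure D2:**
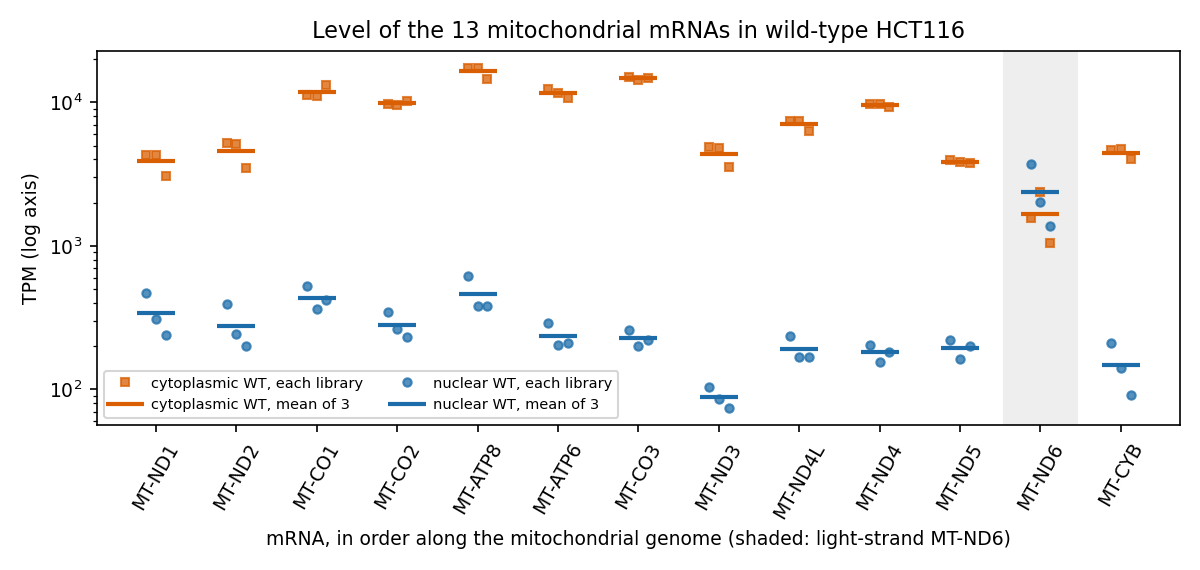
TPM of the 13 mitochondrial mRNAs in WT cells on a log axis, genes in their order along the genome, nuclear and cytoplasmic libraries as separate points (3 each) with their means. The heavy-strand mRNAs lie far higher in the cytoplasm, from 3854 TPM for MT-ND5 to 16441 TPM for MT-ATP8, whereas MT-ND6 has 2373 TPM in nuclei and 1671 TPM in cytoplasm.

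How each RNA divided between the fractions was tested within each line with edgeR's quasi-likelihood test and Benjamini-Hochberg adjustment over 20104 genes, calling an adjusted p of at most 0.05. Of the 23 members tested, 7 tRNAs passed the filter on low counts only through their cytoplasmic reads, and they are left out of the counts and medians between fractions. Of the other 16, which also passed in the nuclear libraries alone, 12 were higher in WT cytoplasm and 0 were lower, against 37.3% of all genes called higher and 39.6% lower. Their median log2 difference was 5.40, and that of all genes tested was -0.04. The 12 were the heavy-strand mRNAs. MT-CO3 had the largest value, 6.58 ± 0.16 (SE, 95.4-fold, edgeR adjusted p = 8.79e-21), and among the heavy-strand mRNAs MT-ND1 had the smallest, 4.07 ± 0.23 (16.8-fold, edgeR adjusted p = 1.34e-14). Between them lay MT-ND4 (6.27), MT-ND3 (6.19), MT-ATP6 (6.18), MT-ND4L (5.75), MT-ATP8 (5.71), MT-CO2 (5.71), MT-CYB (5.47), MT-CO1 (5.32), MT-ND5 (4.85) and MT-ND2 (4.60). MT-ND6 differed from all of these, with 0.06 ± 0.26 (edgeR adjusted p = 0.851), where its libraries overlapped between fractions.

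The same test was run in each knockout line. Members called higher in the cytoplasm numbered 14 (AGO1), 13 (AGO2), 14 (AGO1/2) and 12 (AGO1/2/3) of these 16, while 34.5%, 33.6%, 31.6% and 34.1% of all genes were called higher. Of all genes 40%, 39.8%, 36.9% and 36.1% were called lower. The medians of the 16 were 5.19, 5.28, 6.59 and 5.40 on the log2 scale, and those of all genes lay between -0.09 and -0.03. MT-CO3 gave log2 6.62, 6.75, 7.87 and 6.88, and MT-ND1 3.69, 3.81, 5.25 and 4.24, in the same order of lines. MT-ND6 was called lower in 1 line by this fit: -0.62 ± 0.26 in AGO1/2/3 (edgeR adjusted p = 0.0378), a call lost without nuclear passage 11 (-0.50) or cytoplasmic passage 11 (-0.48) or 14 (-0.59). In the other 3 knockouts (AGO1, AGO2, AGO1/2) MT-ND6 had -0.33, -0.23 and -0.11 and was not called by this fit, which has no replicate block. In fits of each of these 3 lines alone, with passage as a replicate block, it was called lower in the cytoplasm (values in the closing section). With library sizes alone as the scaling the median of all genes in WT moved to -0.56, and MT-ND6 was then called lower in AGO1 (-0.76), AGO2 (-0.67) and AGO1/2 (-0.61). MT-TF had -0.66 in AGO2 (edgeR adjusted p = 0.0560), with every cytoplasmic library below every nuclear one. It was called lower there with RLE size factors (-0.70), library sizes only (-1.09), limma on TPM (-1.17) and the 2 fractions alone (-0.64), and in AGO1/2/3 with library sizes only (-0.81) and limma on TPM (-1.15).

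The effect of each knockout on the cytoplasmic RNAs was tested next. In AGO1/2 cytoplasm 17 of the 25 members tested rose and 1 fell, while 23.9% of the 17605 genes tested were called higher and 25.4% lower. The median log2 change was 0.80 for the members and -0.01 for all genes. All 12 heavy-strand mRNAs had values above 0, and 11 of them were called. The exception was MT-ATP8 (0.25 ± 0.21, edgeR adjusted p = 0.348).

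Complex IV rose as a set, with 3 of its 3 mitochondrial subunits called. MT-CO3 had 14962, 14406 and 14748 TPM in WT cytoplasm and 22116, 25504 and 18835 TPM in AGO1/2. All 3 AGO1/2 libraries exceeded all WT libraries, with passage 10 the highest. The log2 change was 1.02 ± 0.12 (2.03-fold, edgeR adjusted p = 7.35e-06). MT-CO1, the subunit with the oxygen-reducing site, had 11315, 11149 and 13171 TPM in WT and 16791, 18817 and 14786 TPM in AGO1/2. These groups were also separate, with a log2 change of 0.92 ± 0.13 (edgeR adjusted p = 2.94e-05). MT-CO2, which receives electrons from cytochrome c, changed by 0.92 ± 0.14 (edgeR adjusted p = 7.89e-05).

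MT-CYB, the cytochrome b of complex III, had 4683, 4697 and 4009 TPM in WT cytoplasm and 5699, 6261 and 5080 TPM in AGO1/2, again without overlap. Its log2 change was 0.78 ± 0.11 (edgeR adjusted p = 2.87e-05). Of ATP synthase, the proton-channel subunit MT-ATP6 rose by 0.75 ± 0.15 (edgeR adjusted p = 0.000873).

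Among the complex I subunits, 6 of the 6 encoded on the heavy strand were called higher in AGO1/2 cytoplasm. MT-ND3 gave the largest change of any mRNA. It had 4867, 4774 and 3517 TPM in WT and 6942, 9429.9 and 5618 TPM in AGO1/2, which did not overlap, and its log2 change was 1.18 ± 0.20 (2.26-fold, edgeR adjusted p = 0.000195). MT-ND4 (0.94 ± 0.14), MT-ND2 (0.81 ± 0.21), MT-ND1 (0.78 ± 0.20) and MT-ND5 (0.62 ± 0.13) followed, with edgeR adjusted p between 7.28e-05 and 0.00502. MT-ND4L was called at 0.45 ± 0.17 (edgeR adjusted p = 0.0395), but its libraries overlapped WT. Its call was lost in 5 of the 6 fits that left out 1 library, among them the one without AGO1/2 passage 10 (0.25). In TPM, MT-ND1, MT-ND2 and MT-ND5 overlapped WT too, as did MT-ATP6. MT-ND1 had 4322, 4264 and 3084 TPM in WT and 4689, 6468 and 3585 TPM in AGO1/2.

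The scaling set how large this rise appeared. In a limma fit of log2(TPM + 1), a scale that understates changes of low genes, the median of all cytoplasmic genes moved to -0.20 in AGO1/2, and 1355 genes were called higher and 8778 lower, against 4207 and 4463 with edgeR. Of the heavy-strand mRNAs 11 of 12 were still above 0 on that scale, with a median of 0.35 and 6 called higher, and MT-ATP8 turned to -0.21. The TPM medians of the other 3 cytoplasmic comparisons were -0.08 (AGO1), -0.13 (AGO2) and -0.13 (AGO1/2/3), with 238 higher and 3005 lower, 305 and 4785, and 1427 and 6653, where edgeR gave 754 and 1431, 1244 and 1584, and 3281 and 3527.

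Few heavy-strand mRNAs were called in the other 3 knockouts, and all 4 comparisons share the WT libraries. In AGO1 cytoplasm 3 of 25 members fell and 0 rose (all genes 8.13% lower, 4.28% higher), with a member median of -0.18 against -0.01 for all genes. MT-ND5, a proton-pumping subunit of complex I, had 3950, 3829 and 3783 TPM in WT and 2135, 2100 and 1968 TPM in AGO1. The groups were well apart, and the log2 change was -0.76 ± 0.13 (edgeR adjusted p = 0.00205). MT-ATP8 fell by 0.98 on the log2 scale (SE 0.21, edgeR adjusted p = 0.00799), and MT-ND4L by 0.63 (SE 0.17, edgeR adjusted p = 0.0244), a call lost without WT passage 28 (-0.60), AGO1 passage 7 (-0.66) or AGO1 passage 8 (-0.53). On normalised counts, 9 heavy-strand mRNAs lay below WT in every AGO1 library. The share of all genes that separated from WT in this way is not given here, so this count has no background to be read against.

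In AGO2 cytoplasm 1 of 25 members passed, where 9% of all genes were called lower and 7.07% higher. This was MT-ATP8, at -0.66 ± 0.21 (edgeR adjusted p = 0.0489), a call lost whichever of the 6 libraries was left out (edgeR adjusted p 0.0585 to 0.164). MT-CO3 had 0.36 and an edgeR adjusted p of 0.0508. The member median was -0.03 and that of all genes 0.00.

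In AGO1/2/3 cytoplasm 1 of 25 members rose and 4 fell, against 18.6% and 20% of all genes, so neither count was above its background. MT-CO3 rose by 0.36 ± 0.12 (edgeR adjusted p = 0.0258), with 14155.5, 17089 and 16464 TPM, of which passage 11 lay below WT. The call was lost in 4 of the 6 fits without 1 library (WT passage 27 or 28, 0.34 and 0.33; AGO1/2/3 passage 12 or 14, 0.32 in both) and on the TPM scale (0.11). MT-ATP8 fell by 0.62 (SE 0.21, edgeR adjusted p = 0.0318), also lost without WT passage 27 (-0.61) or 28 (-0.58) or without AGO1/2/3 passage 11 (-0.45) or 14 (-0.62). The members' median of -0.03 was close to the -0.01 of all genes. The other 3 members that fell were MT-ND6, MT-TF and MT-TV, described below with their groups.

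**Figure D3:**
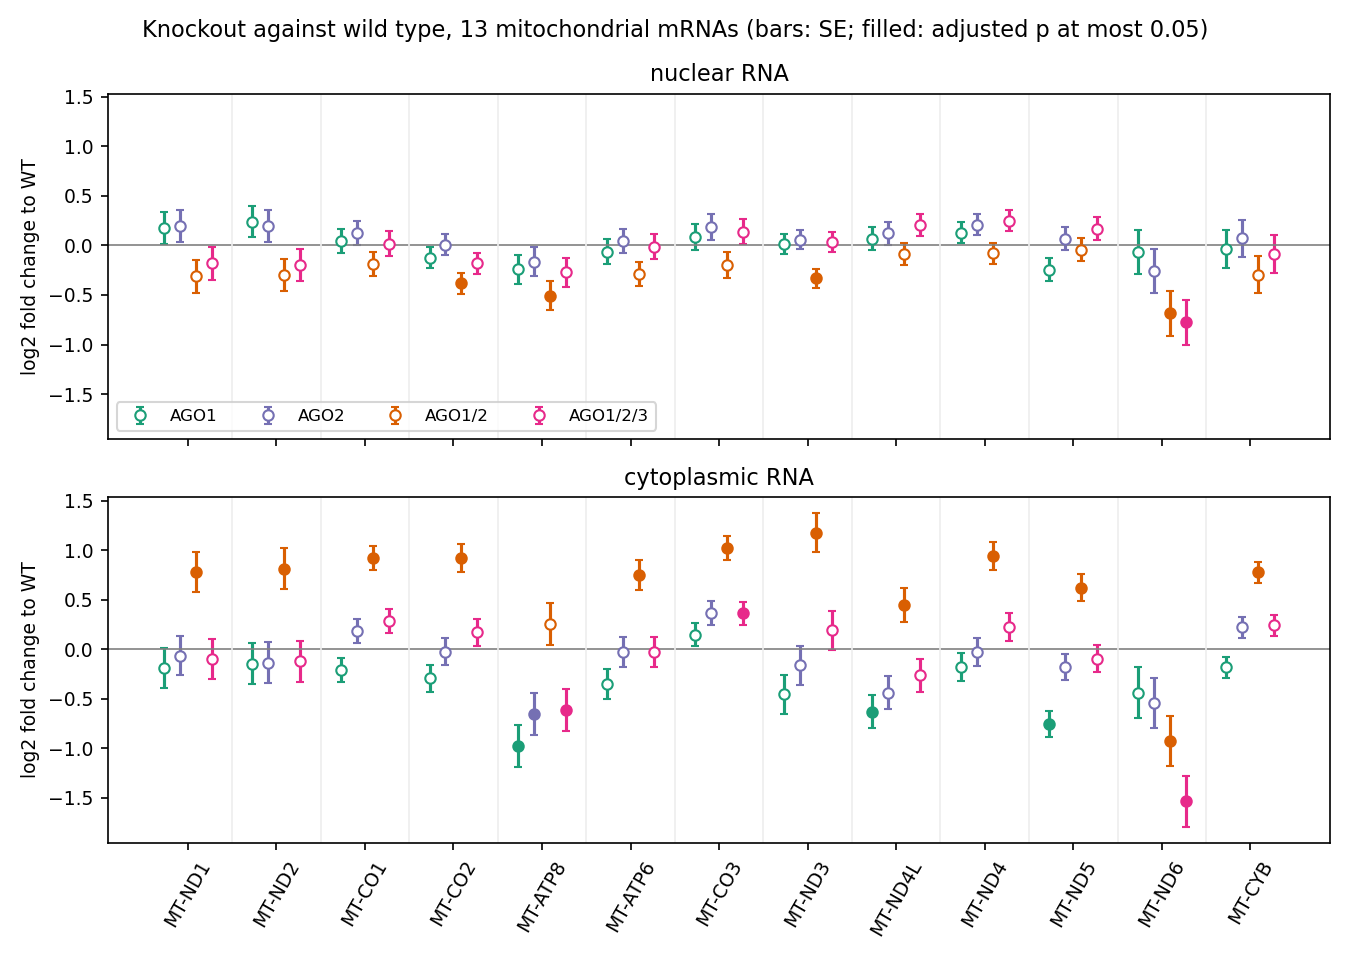
Fitted log2 change against WT (edgeR) of each mitochondrial mRNA in the 4 knockout lines, nuclear and cytoplasmic panels, with bars of 1 standard error and filled points for calls at an adjusted p of at most 0.05. In AGO1/2 cytoplasm the heavy-strand mRNAs run from 0.25 for MT-ATP8 to 1.18 for MT-ND3, and MT-ND6 lies at -0.93.

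In the nuclei far fewer members were called. Of 16 members tested among 18919 genes, 0 were called in AGO1 and 0 in AGO2 by edgeR, where 14.3% of all genes were called higher and 15.6% lower in AGO1, and 20.2% and 19.9% in AGO2. At an unadjusted p under 0.05 edgeR gave 1 and 0, DESeq2 called 0 in both, and limma on log2(TPM + 1) called 2 in AGO1. In AGO1/2 nuclei 5 of 16 fell and 0 rose (34.7% of all genes lower, 32.9% higher), so the count that fell was near its background. The member median was -0.29 and the all-gene median -0.06. MT-CO2 fell by 0.38 (SE 0.11, edgeR adjusted p = 0.00495), MT-ATP8 by 0.51 (SE 0.15, edgeR adjusted p = 0.00623) and MT-ND3 by 0.33 (SE 0.10, edgeR adjusted p = 0.00733). MT-ND6 and MT-TF also fell.

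Those nuclear calls depended on 1 WT library. Without WT passage 27, MT-CO2 had -0.20, MT-ATP8 -0.22 and MT-ND3 -0.18, and MT-TF alone remained called. MT-CO2 had 344, 264 and 232 TPM in WT nuclei and 203, 235 and 203 TPM in AGO1/2, where passage 27 was the highest and the groups overlapped on this scale. In AGO1/2/3 nuclei 2 of 16 fell (MT-ND6 and MT-TF) and 0 rose, against 29.5% and 29.1% of all genes. Both counts were below these shares, and the median was 0.00 against -0.03. On the TPM scale the all-gene medians of the nuclear comparisons were -0.17 (AGO1), -0.17 (AGO2), -0.07 (AGO1/2) and -0.16 (AGO1/2/3). All genes then split into 362 higher and 5777 lower in AGO1 (edgeR 2702 and 2949), 679 and 6311 in AGO2 (3824 and 3772), and 2704 and 7483 in AGO1/2/3 (5504 and 5579).

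Markers moved with genotype in the nuclear libraries. GAPDH, EEF1A1, RPLP0 and TPT1, abundant cytosolic mRNAs, summed to 3799 to 4532 TPM in WT nuclei and 6655 to 7690 TPM in AGO1/2 nuclei. ACTB, also on that list but left out of the sum, had 56.7 to 99.5 TPM in WT nuclei and 160 to 245 TPM in AGO1/2 nuclei. In cytoplasm ACTB was lower, at 26.8 to 32.3 TPM in WT and 25.1 to 33.2 TPM in AGO1/2. 6 mRNAs translated at the endoplasmic reticulum summed to 1074 to 1312 TPM in WT and 2029 to 2280 TPM in AGO1/2, and the nuclear RNAs to 2791 to 3667 and 1283 to 1496 TPM. In AGO1/2/3 nuclei the cytosolic mRNAs summed to 5235 to 5850 TPM, the endoplasmic reticulum mRNAs to 1833 to 2051 TPM and the nuclear RNAs to 1260 to 1561 TPM. The nuclear RNAs were also lower in AGO1 nuclei (1712 to 2166 TPM) and AGO2 nuclei (1826 to 1924 TPM) than in WT. In the cytoplasm the 4 cytosolic mRNAs summed to 7969 to 8606 TPM in WT and 6599 to 8101 TPM in AGO1/2, where they overlapped the AGO1/2 nuclei. The endoplasmic reticulum mRNAs summed there to 946 to 1192 TPM in WT and 760 to 935 TPM in AGO1/2, below the AGO1/2 nuclei. The part of these markers in the MT- values of either fraction, and in the ratios between fractions, was not tested.

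Whether a knockout acted differently in the fractions was tested as the cytoplasmic minus the nuclear log2 change, in one fit of all 30 libraries. In AGO1/2, 12 of the 16 members that also passed the filter in nuclei had a more positive cytoplasmic change and 0 a more negative one, where all genes gave 17% and 19.6%. Their median was 1.16 and that of all genes 0.04. MT-CO2 differed by 1.38 ± 0.19 (edgeR adjusted p = 2.94e-06), MT-CO3 by 1.30 (edgeR adjusted p = 5.35e-06) and MT-ND3 by 1.58 (edgeR adjusted p = 1.07e-05). The other 9 heavy-strand mRNAs were called as well, from MT-ND4L (0.60, edgeR adjusted p = 0.0288) to MT-CO1 and MT-ND2 (both 1.18). The MT-ND4L call was lost in 5 fits without 1 library (without nuclear WT passage 27, 0.44; nuclear AGO1/2 passage 9, 0.58; cytoplasmic WT passage 29, 0.56; cytoplasmic AGO1/2 passage 9 or 10, 0.59 and 0.41). It was also lost with MT- genes left out of the scaling (0.55). The MT-ATP8 call (0.83) was lost without nuclear WT passage 27 (0.58) or cytoplasmic AGO1/2 passage 10 (0.54). On the TPM scale limma did not call MT-ND4L (0.07) or MT-ATP8 (0.26), nor MT-CYB, MT-ND1, MT-ND2 and MT-ND5. MT-ND6 was not called, at -0.16 ± 0.37 (edgeR adjusted p = 0.769). In AGO1, in AGO2 and in AGO1/2/3, edgeR called 0 members, against 0.662%, 5.76% and 22.7% of all genes in either direction. At an unadjusted p under 0.05 there were 3, 2 and 3 of all 23 tested, and DESeq2 called 0, 0 and 2.

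MT-ND6 was followed across all lines, because it is the 1 mRNA of the light-strand precursor. In WT cytoplasm it had 1572, 2391 and 1049 TPM. AGO1 gave 1465, 942 and 916.5 TPM, AGO2 1074, 925 and 912 TPM, AGO1/2 577, 768 and 597 TPM, and AGO1/2/3 377, 618 and 450 TPM. Every AGO1/2 and AGO1/2/3 library lay below every WT library, whereas AGO1 and AGO2 overlapped WT. The log2 change was -1.54 ± 0.26 in AGO1/2/3 (0.345-fold, edgeR adjusted p = 0.000302), and over 11 fits, including those without 1 library, it ran from -1.75 to -1.20 with an adjusted p of at most 0.00268. In AGO1/2 it was -0.93 ± 0.26 (edgeR adjusted p = 0.00763), a call lost without WT passage 28 (-0.59, edgeR adjusted p = 0.0559), the library with the highest value. AGO1 (-0.44, edgeR adjusted p = 0.283) and AGO2 (-0.55, edgeR adjusted p = 0.167) were not called.

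The nuclear MT-ND6 values were 2127, 1841 and 1798 TPM in AGO1, 1899, 1743 and 1358.5 TPM in AGO2, 1384.5, 1746 and 1255 TPM in AGO1/2, and 1393, 1061 and 1085 TPM in AGO1/2/3. All 4 lines overlapped the WT range of 1383 to 3710 TPM. MT-ND6 was called lower in AGO1/2 (-0.69 ± 0.23, edgeR adjusted p = 0.0143) and AGO1/2/3 (-0.77 ± 0.23, edgeR adjusted p = 0.00848), and both calls were lost without WT passage 27 (-0.21, edgeR adjusted p = 0.219, and -0.30, edgeR adjusted p = 0.0904). The AGO1/2 call was also lost without AGO1/2 passage 9 (-0.63) or 11 (-0.60) and on the TPM scale (-0.59).

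Relative to the heavy-strand mRNAs, cytoplasmic MT-ND6 stood at 0.195 of their mean TPM in WT (range 0.130 to 0.276, n = 3), 0.178 in AGO1 and 0.139 in AGO2. The ratio was 0.0599 in AGO1/2 (0.0538 to 0.0672) and 0.0647 in AGO1/2/3 (0.0601 to 0.0737), and both were below all WT libraries. In nuclei MT-ND6 exceeded the heavy-strand mean 8.96 times in WT (6.35 to 11.5), 8.86 times in AGO1, 7.28 times in AGO2, 6.91 times in AGO1/2 and 5.54 times in AGO1/2/3 (5.45 to 5.64). As a share of the TPM of the 13 mRNAs, MT-ND6 made up 42.2% ± 7.18 in WT nuclei and 1.59% ± 0.600 in WT cytoplasm. These ratios are free of library scaling. They also compare genes on opposite strands, and the strand setting of the read assignment is not given in the sources used here, so reads antisense to MT-ND6 may be counted with it.

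**Figure D4:**
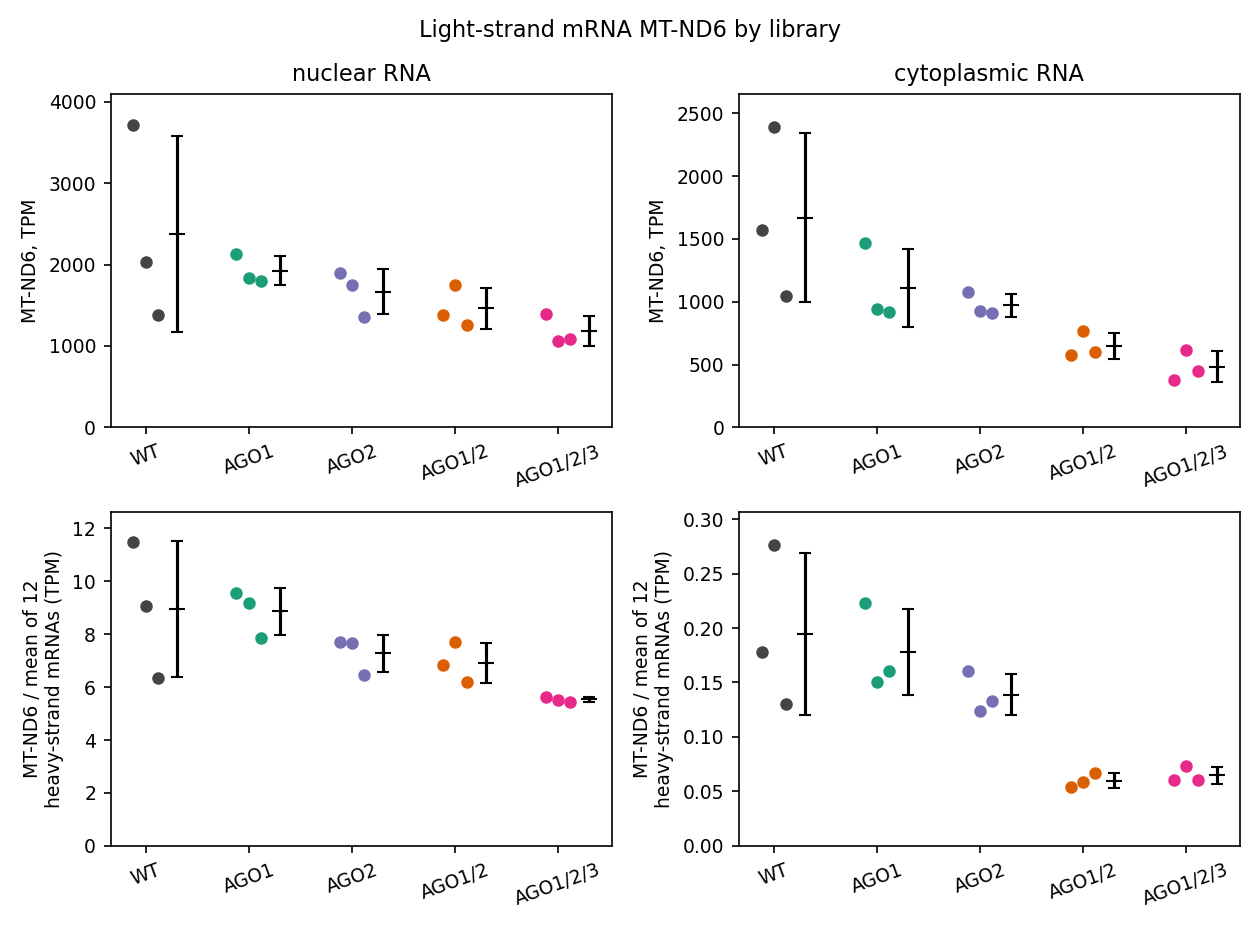
TPM of MT-ND6 (top) and its TPM divided by the mean TPM of the 12 heavy-strand mRNAs (bottom) in each library, on linear axes from 0, with nuclear and cytoplasmic panels, by genotype; coloured points are libraries and black bars are the mean ± SD of 3. In the cytoplasm the ratios of the AGO1/2 and AGO1/2/3 libraries (0.0538 to 0.0737) lie below those of all WT libraries (0.130 to 0.276).

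MT-ATP8 and MT-ND4L, the upstream partners of the 2 overlapping pairs whose windows are printed above, were lower relative to their partners in the cytoplasm of every knockout. MT-ATP8 had 17337, 17406 and 14581 TPM in WT cytoplasm, 8667, 7384.5 and 6408 TPM in AGO1, 8301, 10198 and 8143 TPM in AGO2, 13505, 19355 and 10867 TPM in AGO1/2, and 6902, 11145 and 8847 TPM in AGO1/2/3. AGO1/2 alone overlapped WT. The ratio of MT-ATP8 to MT-ATP6 was 1.42 in WT cytoplasm (1.36 to 1.49) and 0.909, 0.919, 1.001 and 0.934 in the knockouts (in the order just given), with no knockout library above 1.12. In nuclei it was 1.93 in WT (1.81 to 2.12) against 1.73, 1.66, 1.68 and 1.58, where AGO1 alone overlapped WT.

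The ratio of MT-ND4L to MT-ND4 was 0.733 in WT cytoplasm (0.675 to 0.762) and 0.536, 0.554, 0.523 and 0.521 in the 4 knockouts, with no knockout library above 0.582. In nuclei the ratios were 1.05 in WT and 1.01, 0.986, 1.06 and 1.003 in the knockouts, and all overlapped. Salmon gave MT-ATP8 an effective length, the number of positions a fragment can start from, of 59.6 to 63.2 bases and MT-ND4L one of 121 to 125 bases, the shortest of the mRNAs, and the part of these lengths in the ratios was not tested.

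**Figure D5:**
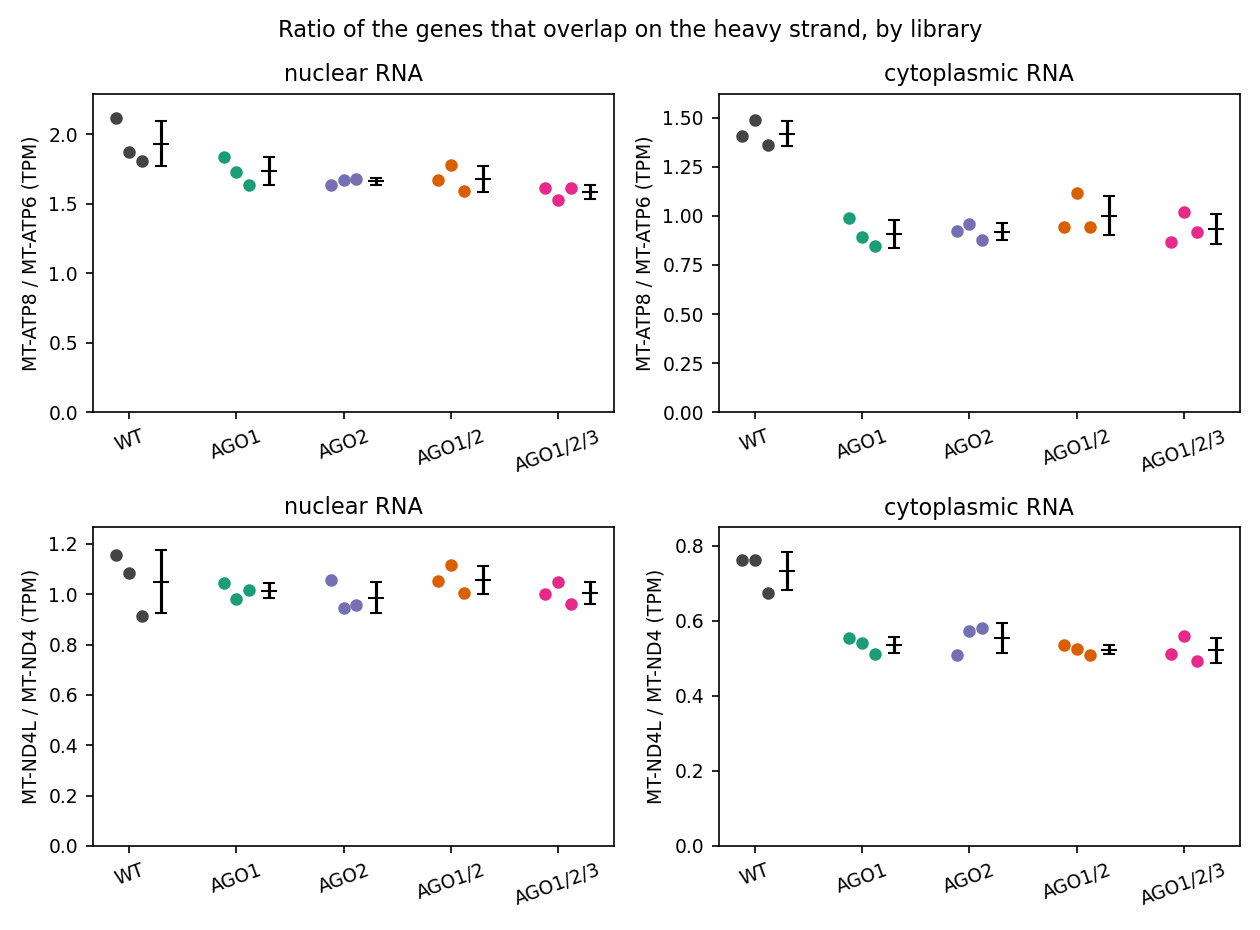
TPM ratio of MT-ATP8 to MT-ATP6 and of MT-ND4L to MT-ND4 in each library, linear axes from 0, by genotype and fraction; coloured points are libraries and black bars are the mean ± SD of 3. In the cytoplasm all WT libraries (1.36 to 1.49 and 0.675 to 0.762) lie above all knockout libraries (at most 1.12 and 0.582).

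The rRNAs MT-RNR1 (12S, chrM:648-1601) and MT-RNR2 (16S, chrM:1671-3229) form the cores of the mitochondrial ribosome subunits. Whether the rRNA removal step also targeted them is not stated in the sources used here, and its part in their counts was not tested. In WT cytoplasm MT-RNR1 had 276, 75 and 16 reads and MT-RNR2 505, 105 and 12. In AGO1/2 cytoplasm MT-RNR1 had 40041, 31 and 708 reads and MT-RNR2 61174, 79 and 755. 1 library, passage 9, thus held nearly all of them, and passage 10 had fewer reads than 2 of the shallower WT libraries. Both were called higher in AGO1/2 (6.07 ± 1.85, edgeR adjusted p = 0.0138, and 5.90 ± 1.95, edgeR adjusted p = 0.0213), and without passage 9 the values were 0.77 (edgeR adjusted p = 0.671) and 0.19 (edgeR adjusted p = 0.928).

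In AGO1 cytoplasm MT-RNR2 had 60, 3643 and 1903 reads, and in AGO1/2/3 cytoplasm 28, 108 and 5. Nuclear libraries held at most 51 MT-RNR1 reads and 53 MT-RNR2 reads. Within these groups the replicates spanned wide ranges. Between the fractions of WT cells MT-RNR1 had a log2 difference of 4.70 (edgeR adjusted p = 0.131) and MT-RNR2 3.99 (edgeR adjusted p = 0.123). With the 6 WT libraries alone and passage as a replicate block these were 4.48 (edgeR adjusted p = 0.000379) and 3.72 (edgeR adjusted p = 0.000453), and both were then called, as they were without the block in those 6 libraries (edgeR adjusted p = 0.00880 and 0.0232).

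The 22 tRNAs, which carry amino acids to the mitochondrial ribosome, drew 7190 reads in all 30 libraries together. RNeasy columns retain RNA of tRNA size poorly, and the effective length of the tRNAs in the files was 8.15 to 12.4 bases, so they are given as reads or as RPM, which scales the assigned reads of each library to the same total, and not as TPM. MT-TF (chrM:577-647), at the start of the heavy-strand transcript, had 1848 reads, MT-TM 1379 and MT-TS1 848, together 56.7% of the tRNA reads. 3 tRNAs (MT-TD, MT-TG and MT-TR) had 0 reads in every library, 8 had under 10 reads in all, and 4 had a read in all 30 libraries. With effective lengths this short, a count of 0 does not bear on whether the tRNA is present.

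MT-TF was the 1 tRNA with enough reads for a nuclear test. It had 3.17, 2.17 and 2.15 RPM in WT nuclei, 1.85, 1.46 and 1.60 in AGO1, 1.93, 2.37 and 1.89 in AGO2, 0.725, 0.921 and 0.795 in AGO1/2 and 1.005, 1.05 and 0.890 in AGO1/2/3. All libraries of AGO1, AGO1/2 and AGO1/2/3 lay below all WT libraries, and AGO2 overlapped WT. The log2 changes were -0.48 ± 0.19 in AGO1 (edgeR adjusted p = 0.0726; limma on TPM called it, at -0.63), -0.14 ± 0.19 in AGO2 (edgeR adjusted p = 0.578), -1.35 ± 0.20 in AGO1/2 (edgeR adjusted p = 2.02e-05) and -1.09 ± 0.20 in AGO1/2/3 (edgeR adjusted p = 0.000197). In the cytoplasm MT-TF had 2.28, 2.52 and 0.998 RPM in WT and 0.315, 0.819 and 0.551 in AGO1/2/3, and fell there by 1.69 on the log2 scale (SE 0.39, edgeR adjusted p = 0.00312). Between the fractions of WT cells it did not pass (0.12, edgeR adjusted p = 0.723).

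10 tRNAs could be tested in the cytoplasm. In AGO1/2 cytoplasm 4 of the 5 light-strand tRNAs tested rose: MT-TN (1.95), MT-TE (1.45), MT-TA (1.17) and MT-TS1 (0.80), with edgeR adjusted p between 0.00131 and 0.0300. MT-TN had 3, 9 and 16 reads in WT and 67, 68 and 43 in AGO1/2, which separated, as did the groups of the other 3 on normalised counts. The MT-TS1 call was lost without WT passage 27 (0.55) or AGO1/2 passage 10 (0.64). These 4 tRNAs come from the light strand, as does MT-ND6, which fell in the same libraries. Their counts were low, with MT-TE at 7, 22 and 7 reads in WT and 52, 56 and 55 in AGO1/2. As for MT-ND6, the strand setting is not given, so reads antisense to these tRNAs may be counted with them. Whether the light-strand RNAs truly moved apart was not tested. In AGO1/2/3 cytoplasm the tRNA that fell beside MT-TF was MT-TV, which lies between the rRNA genes and was singled out after its values were seen (-1.50 ± 0.39, edgeR adjusted p = 0.00684), although its libraries overlapped WT.

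Nuclear pseudogene copies of mitochondrial genes can take or give reads. The annotation holds 404 such copies, 129 of which had reads, and 3 of them carried 93.8% of the 647182 copy reads. MTATP6P1 (chr1:633696-634376, plus strand), 98.5% identical to MT-ATP6, had 5.25% to 8.38% of the reads of the pair in each library. MTCO1P12, 98.6% identical to MT-CO1, had at most 0.199%, and MTND2P28, 98.2% identical to MT-ND2, had 0.508% to 1.10%. The levels of MT-ATP6 are therefore the most uncertain among the mRNAs in this respect. With the copies added, MT-ATP6 was called lower in AGO1/2 nuclei (-0.31, edgeR adjusted p = 0.0348), where without them it was at the threshold and not called (-0.29).

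A list of 52 nuclear-encoded genes of mitochondrial DNA replication, transcription, RNA processing and decay, of which 51 were tested, was examined beside the members. In AGO1/2 cytoplasm 1 rose and 41 fell, with a median log2 change of -0.42, where 23.9% and 25.4% of all genes were called. In AGO1/2/3 cytoplasm, where the heavy-strand mRNAs had a median of 0.07, 1 rose and 38 fell (median -0.37), against 18.6% and 20% of all genes. The 10 transcription genes fell in 10 and 9 cases, and the 4 genes that cleave tRNAs from precursors in 4 and 4. In AGO1 cytoplasm 3 rose and 0 fell (median 0.12, all genes 4.28% and 8.13%), and in AGO2 cytoplasm 0 rose and 1 fell (0.05, all genes 7.07% and 9%).

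In the nuclei 18 rose and 1 fell in AGO1, 16 and 6 in AGO2, 13 and 19 in AGO1/2, and 3 and 26 in AGO1/2/3, with medians of 0.18, 0.07, -0.10 and -0.19. All genes gave 14.3% higher and 15.6% lower in AGO1, 20.2% and 19.9% in AGO2, 32.9% and 34.7% in AGO1/2, and 29.1% and 29.5% in AGO1/2/3, so the AGO1/2 counts were near their background. On the TPM scale the list counts of AGO1 and AGO2 turned to 1 higher and 8 lower, and 0 and 11. All 18919 genes turned in the same way on that scale, to 362 higher and 5777 lower in AGO1 and 679 and 6311 in AGO2. HSD17B10, a subunit of the enzyme that cuts tRNA 5′ ends, and TBRG4, which stabilises some mitochondrial mRNAs, rose in the nuclei of all 4 knockouts with edgeR (AGO1/2/3 log2 0.38 and 0.21). PPARGC1B, a coactivator of mitochondrial genes, fell most in AGO1/2/3 (nuclear -1.27, cytoplasmic -1.30). FASTKD1, a mitochondrial RNA-binding protein, had -1.07 in nuclei, and MTERF3, a mitochondrial transcription regulator, had -1.24 in cytoplasm. FASTK, whose mitochondrial form is needed for MT-ND6 mRNA, was the 1 gene of the list that rose in AGO1/2/3 cytoplasm (0.43, edgeR adjusted p = 0.000111).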

How the data were processed

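RNA from nuclear and cytoplasmic fractions (cytoplasm being the supernatant of a hypotonic lysis with detergent, nuclei being washed) was purified on columns with DNase and sequenced as paired ends after TruSeq Stranded total RNA preparation with Ribo-Zero. Per the labels, the authors used STAR 2.5.3a, Salmon 0.11.0 and hg38, and deposited 1 table per library with estimated counts (expected read numbers) and TPM per transcript; the strand setting is not given in the sources used here. The 8 eCLIP samples were not used here.

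Transcripts were matched to GENCODE 44 by identifier (196040 of 200401; the unmatched 4361 held 2.23% to 4.01% of reads) and summed per gene, with estimated counts rounded. Genes passing filterByExpr were tested with edgeR 4.0.16 (TMM scaling, quasi-likelihood, Benjamini-Hochberg adjustment over all genes tested): knockouts against WT within each fraction (15 libraries), and fractions and their difference between lines over all 30. limma 3.58.1, DESeq2 1.42.0 and other scalings were alternatives. Fits were run on simulated counts with planted changes and the same fixed dispersion for every gene. This checks that planted changes can be recovered, and does not bear on the calls in these libraries. Groups came from the labels. The replicates are separate cultures, and no 2 libraries of a group agreed within sampling noise (smallest chi-square per degree of freedom 4.83). Counting error was small for mRNAs and large for tRNAs. Passage numbers paired the WT fractions (correlations of deviations 0.431, 0.437 and 0.71).

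Members and gene lists were chosen with earlier results of these data known. Named in the text were the mRNAs, the rRNAs, the 3 tRNAs with most reads, the light-strand tRNAs as a group and, of the gene list, the genes called in all 4 knockouts and the extremes in AGO1/2/3. The libraries of the 4 comparisons share WT.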

Additional observations from a re-analysis of the deposited data

Results flagged for a closer look

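The AGO1/2 knockout had a different effect in the 2 fractions for 15 of 23 MT- genes by edgeR's test of the difference itself (adjusted p at most 0.05), with the cytoplasmic change the more positive in each; 12 of the 15 are the heavy-strand mRNAs, and the other 3 are tRNAs that passed the filter on low counts only through cytoplasmic reads. Among the heavy-strand mRNAs the cytoplasmic minus nuclear log2 change was 1.585 for MT-ND3, 1.381 for MT-CO2, 1.295 for MT-CO3, 1.184 for MT-CO1, 1.183 for MT-ND2, 1.173 for MT-ND1, 1.153 for MT-CYB, 1.113 for MT-ATP6, 1.093 for MT-ND4, 0.8341 for MT-ATP8, 0.7374 for MT-ND5 and 0.6049 for MT-ND4L. The MT-ND4L and MT-ATP8 calls were each lost when single libraries were left out (nuclear WT passage 27, 0.44 and 0.58). MT-TV, one of those tRNAs, had 2.302, a value that the filter selected for and whose call was lost without nuclear WT passage 27 (1.95, edgeR adjusted p = 0.0688). Nuclear libraries of this line also held more cytosolic mRNA and less of the nuclear RNAs than WT (values beside the nuclear results), and the part of that shift in these differences was not tested.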

How the results depend on the processing

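Of 459 repeats of a summary value under another setting, 385 kept it within the spread or within 1.5 times the count, 74 moved and 0 were counted as reversed. Of 3997 repeats for single genes 3832 kept the call, 92 gained one and 73 lost one. Some small log2 ratios of the MT- share did change sign. Without nuclear WT passage 27 they went from -0.131 to 0.084 (AGO1 nuclei) and from -0.105 to 0.109 (AGO2 nuclei). By TPM they went from 0.071 to -0.224 (AGO1/2/3 cytoplasm) and from 0.0003 to -0.288 (AGO2 cytoplasm). The cause of these changes was not tested. The 18 MT- calls in AGO1/2 cytoplasm became 11 with limma on log2(TPM + 1) and 11 on log2(TPM + 0.1), and no other setting with all libraries moved that count by over 1.5 times. In the other cytoplasmic comparisons the TPM scale with a pseudocount of 1 or 0.1 gave 8 and 6 calls in AGO1 and 4 and 3 in AGO2, and 8 in AGO1/2/3 with 0.1. In AGO2, DESeq2, library sizes without MT- genes, no filter and a mean of at least 50 reads each gave 2, and the 2 groups alone 3. In nuclei AGO1 had 1 call at a mean of at least 50 reads and 2 on either TPM scale, AGO2 1 without a filter, AGO1/2 9 at a mean of at least 50 reads, and AGO1/2/3 7 without a filter and 4 on either TPM scale.

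The difference between fractions had 8 calls in AGO1/2 on the TPM scale, and in AGO1/2/3 2 with DESeq2 and 1 with library sizes only. The size factor (RLE) and library-size settings of this test were chosen after seeing the data. Scaling moved the split of all genes in it. AGO1 had 96 higher and 37 lower, but 433 and 93 with DESeq2, 332 and 22 with library sizes only and 1434 and 54 with limma. AGO2 had 629 and 529, but 1008 and 453, 905 and 138, and 2248 and 334. AGO1/2 had 3412 and 3936, but 4108 and 3025 with RLE and 3701 and 7316 with limma. AGO1/2/3 had 2222 and 2345, but 2890 and 1463 with library sizes only and 1706 and 3704 without MT- genes. Between the fractions of WT cells 7490 genes were higher and 7957 lower, but 4100 and 11159 with library sizes only and 3793 and 11516 with limma (median -0.29). In both, 16 of the 23 MT- genes tested were higher and 0 lower. Those 23 include the 7 tRNAs that passed the filter only through cytoplasmic reads, for which the filter favours a higher value there. Log2 ratios of the MT- share taken from TPM in place of reads were -0.465 (AGO1), -0.288 (AGO2), 0.340 (AGO1/2) and -0.224 (AGO1/2/3) for cytoplasm against WT, and 4.007, 4.217, 5.011 and 4.532 for cytoplasm against nuclei. Of the 51 genes of the processing list, the TPM scale called 9 and 11 in AGO1 and AGO2 nuclei and 1 and 7 in their cytoplasm. The all-gene counts on that scale stand with the nuclear and cytoplasmic results above. The 2 groups alone called 12 of the list in AGO1 nuclei, 21 in AGO1/2 nuclei, and 0 and 0 in AGO1 and AGO2 cytoplasm, and DESeq2 called 7 in AGO1 cytoplasm.

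Leaving out 1 library at a time gave 0 to 2 nuclear calls in AGO1 and 0 to 4 in AGO2 (both highest without WT passage 27), 1 to 8 in AGO1/2 (1 without WT passage 27, 8 without WT passage 28) and 2 to 5 in AGO1/2/3. In cytoplasm it gave 0 to 3 in AGO2 and 3 to 7 in AGO1/2/3, against 14 to 19 in AGO1/2. The difference between fractions had 0 to 1 in AGO2, 0 to 2 in AGO1/2/3 and 12 to 15 in AGO1/2. The processing list had 17 to 30 in AGO1/2/3 nuclei, 1 to 5 in AGO1 cytoplasm and 0 to 6 in AGO2 cytoplasm.

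With passage as a replicate block, the fractions of WT cells gave 17 calls, as without the block, and the difference between fractions gave 0 in AGO1, 1 in AGO2, 15 in AGO1/2 and 2 in AGO1/2/3. In those fits of 1 line MT-ND6 was called lower in cytoplasm in AGO1 (-0.38), AGO2 (-0.21, also without the block) and AGO1/2 (-0.15). Same-passage libraries of the knockouts did not all deviate together (lowest correlation 0.00907). Read number limited the tRNAs. Counts of MT- genes between fractions given here include the 7 tRNAs that passed the filter only through cytoplasmic reads.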
